A study of Caenorhabditis elegans with 25 samples.

Results

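The transcripts described here are 150 spermatogenesis transcripts of Caenorhabditis elegans whose level in him-8 sperm was lowest relative to him-8 male germlines. They were taken from a pool of 1338 identifiers, of 45461 in the count tables, whose RPKM (reads scaled to transcript length and library size) was over 15 in both N2 and him-8 male germlines and under 1 in oogenic germlines. For each identifier the mean CPM (counts scaled to a library total of 1e6 gene counts) of 3 him-8 sperm libraries plus 0.5 was divided by the mean CPM of him-8 male germline libraries 1, 3 and 4 plus 0.5, and the 150 lowest ratios were kept. They are called low-ratio transcripts, after the ratio that chose them. In the mes-3 libraries, which the ratio did not use, 11 of 138 tested (7.97%) were called lower in sperm than in the germline. Another 7 (5.07%) were called higher. Of the other pool transcripts tested there, 1.77% were called lower and 28.4% higher. Of all genes tested there, 10.4% were called lower and 19% higher. A transcript that was not called may still differ. The other 1188 transcripts of the pool serve as the background of spermatogenesis transcripts.

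In C. elegans males, germ cells enter meiosis as they move along the gonad, transcribe sperm genes in late pachytene and then divide into spermatids. At the divisions the ribosomes, actin, tubulin and much of the cytoplasm go into a residual body, and the spermatid, which no longer transcribes, keeps the organelles, the nucleus and the major sperm proteins. A transcript can therefore be high in the germline and low in sperm when it is used early or left in the residual body. In bulk RNA a lower level could mean fewer cells that hold the transcript or less of it per cell, and these cannot be told apart.

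The study asked whether chromatin marks carried by sperm matter for the germline of the offspring, using mes-3, a gene for a component of the Polycomb complex that makes H3K27me3. Both mes-3 groups came from XO males homozygous for mes-3(bn35) in strain SS818, whose mes-3/hT2-GFP mothers supplied MES-3 product, at 20 °C: 3 sperm and 3 male germline libraries. Their controls were XO males of him-8(e1489), strain CB1489, in which loss of an X-pairing protein gives many males, at 20 °C: 3 sperm and 4 male germline libraries. N2 wild-type males at 20 °C gave 2 germline libraries. Offspring germlines came from worms carrying mes-3(bn35) and fem-2(b245ts), strain SS1167, at 15 °C. For 2 libraries the fathers were homozygous for mes-3(bn35), and their sperm chromosomes lacked H3K27me3 (M+P-). For the other 2 the fathers were heterozygous, and their sperm chromosomes carried it (M+P+). Oogenic germlines came from N2 (3 libraries, 20 °C) and from fem-2(b245ts) worms of strain DH245 kept at 15 °C and shifted at the L4 stage to 20 °C for 24 h (3 libraries). Germline libraries pool distal gonad arms of day 1 adults, cut at the late-pachytene bend, so they lack the region of the divisions, and sperm libraries hold spermatids released from cut males.

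The libraries held 1078195 to 18617543 gene counts, of which mes-3 sperm had 1561329 to 2489066, mes-3 male germlines 7500138 to 9991288, him-8 sperm 1965802 to 3084442 and him-8 male germlines 1849544 to 5030360. In the sperm preparations, the summed level of 9 pachytene axis and synaptonemal complex genes was 480 to 539 CPM in mes-3 sperm, against 1000 to 1142 CPM in the mes-3 germlines, lower but not absent. In him-8 sperm it was 328 to 459 CPM, against 666.7 to 945.5 CPM in him-8 male germlines. Mes-3 and him-8 sperm also differed in 14 sperm marker genes, with sums of 11128 to 13469 CPM and 19097 to 22238 CPM. For 78 cytosolic ribosomal protein genes the sums were 33612 to 39248 CPM and 15717 to 18834 CPM. Whether these differences enter the mes-3 ratios below was not tested. Markers of some other tissues were high in sperm: 10 muscle genes summed to 2829 to 5196 CPM in mes-3 sperm, against 62.7 to 129 CPM in the mes-3 germlines, and 6 intestine genes to 895 to 963 CPM, against 10.8 to 32.7 CPM. For 5 hypodermis genes the sums were 368 to 810 CPM, against 14.6 to 26.7 CPM. Sums overlapped for 4 neuron genes (49.3 to 84.4 CPM, against 49.2 to 70 CPM) and 4 somatic gonad genes (1.28 to 23.7 CPM, against 6.93 to 15.4 CPM). The same muscle genes summed to 2504 to 5830 CPM in him-8 sperm, against 228 to 297 CPM in him-8 male germlines 1, 3 and 4 and 3678 CPM in him-8 male germline 2, which stands apart and is not in the ratio. No muscle, intestine or hypodermis marker was at 0 in every library of any male group, and the part of this RNA in the results below was not tested. The count tables also carry a library tag in their names, lettered here A to G, whose meaning is not stated. All 9 mes-3 and him-8 sperm and mes-3 male germline libraries have tag F, him-8 male germlines have tags D (1 and 2) and E (3 and 4), and N2 male germlines have tags D (1) and A (2). In him-8 the ratio thus compares tag F with tags D and E, and sample type and tag cannot be told apart there, whereas mes-3 sperm and mes-3 male germlines share tag F.

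The ratios that chose the transcripts, given as a description, ran from 0.00394 to 0.475 with a median of 0.350, and the other 1188 transcripts of the pool had a median of 1.17. Just inside the threshold were F16G10.5 (0.468), Y39B6A.18 (0.473) and ncr-2 (0.475), and just outside were Y97E10AR.8 (0.479), Y39F10A.3 (0.481) and nspd-1 (0.482), so nothing separates the last ones in from the first ones out. The lowest ratio belonged to msp-32 (R05F9.3), a gene of the major sperm protein family, the cytoskeletal proteins by which nematode sperm crawl. It had 0, 0.508 and 0.324 CPM in him-8 sperm, against 132, 231, 243 and 215 CPM in him-8 male germlines. Next came ZK1248.4, F59A6.2, F10D11.3, ZK1248.17, K07E12.2, C15A11.2, Y69A2AR.27, Y59E9AL.5 and Y46H3D.1, with ratios of 0.0136 to 0.0742 and no role stated here.

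These lowest ratios did not come from 1 kind of pattern. For msp-32, ZK1248.4 and ZK1248.17 all 4 him-8 male germlines were high, and ZK1248.17 had 0 counts in all 9 tag F libraries, against 9.80, 16.8, 25.6 and 20.3 CPM in him-8 male germlines. For F59A6.2 the him-8 male germlines themselves split by tag, with 62.5 and 114 CPM under tag D and 1.39 and 2.14 CPM under tag E. F10D11.3 was alike, with 52.1 and 77.9 CPM under tag D and 2.78 and 1.71 CPM under tag E. K07E12.2 had 37.4 and 34.1 CPM under tag D and 0.994 and 2.14 CPM under tag E. The N2 male germlines split the same way for these 3 transcripts, with 100, 84.3 and 42.9 CPM in the tag D library and 2.87, 2.87 and 2.05 CPM in the tag A library.

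In mes-3 males sperm and germline have the same tag, and neither chose the transcripts. Of 138 that passed the count filter, 11 were lower and 7 were higher in mes-3 sperm than in mes-3 male germlines (edgeR quasi-likelihood test, adjusted p under 0.05). Over all 10018 genes tested, 10.4% were called lower and 19% higher, so the share of low-ratio transcripts called lower, 7.97%, was near that of all genes. A transcript that was not called may still differ. The low-ratio transcripts had a median log2 fold change of -0.08, beside -0.06 over all genes tested. It was 0.35 in the 1187 tested transcripts from the rest of the pool, of which 337 (28.4%) were higher and 21 (1.77%) lower, so beside other spermatogenesis transcripts a larger share of the low-ratio transcripts was lower and a smaller share higher. The lower count depended on single libraries, since it was 6, 7 and 5 without mes-3 male germline 1, 2 or 3, 7 without mes-3 sperm 1 and 20 without mes-3 sperm 2, and it was 18 with total counts in place of TMM factors.

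The same formula applied to the mes-3 libraries gave ratios of 0.195 to 2.62 with a median of 0.828. Of the 150 low-ratio transcripts, 25 were under 0.5, 65 lay from 0.5 to 1 and 60 were at 1 or over. The rest of the pool had a median of 1.11, with 28 of 1188 under 0.5. The 150 lowest of the 1338 in the pool were also chosen by mes-3 sperm over mes-3 male germlines in place of the him-8 ratio. Of the 150, 53 were shared, and the number shared by a random choice was not computed. All 3 mes-3 sperm libraries lay below all 3 mes-3 male germline libraries for 42 of the 150, or 28%, against 12.2% of the rest of the pool and 32.8% of all genes tested. They lay above them for 12, or 8%, against 28.5% of the rest of the pool and 21.5% of all genes tested.

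**Figure D1:**
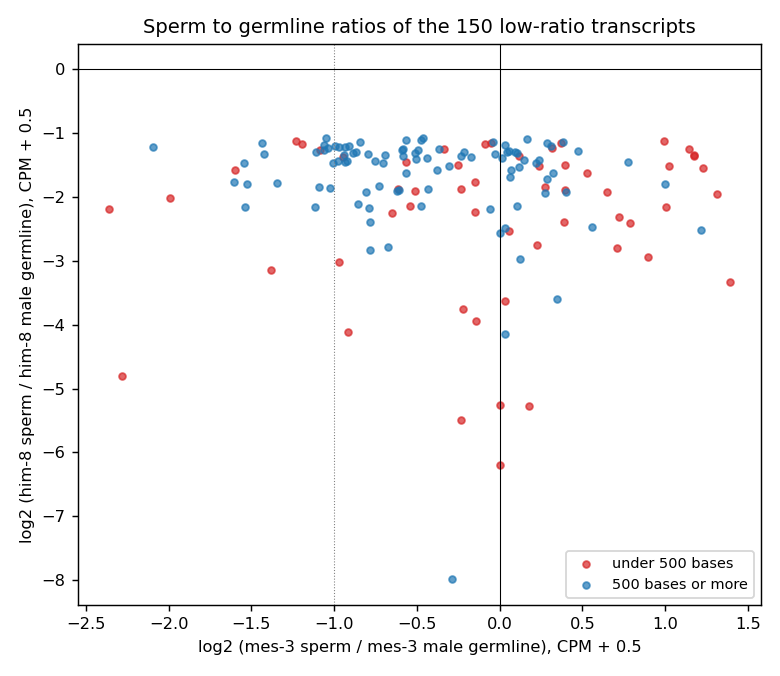
Log2 ratio of sperm to male germline for each of the 150 low-ratio transcripts, in mes-3 libraries (x axis, not used by the rule) and in him-8 libraries (y axis, which chose the transcripts), from mean CPM plus 0.5; color marks transcripts under 500 bases and of 500 bases or more, and the dotted line marks a mes-3 ratio of 0.5. All points lie below 0 on the y axis by construction, while on the x axis 60 of 150 lie at or over 0 and 25 lie left of the dotted line.

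The 11 transcripts called lower in mes-3 sperm were F36D1.8, C04E6.4, F46F5.11, T05E8.1, ZK105.3, best-26, snpc-1.3, ncr-2, F27E5.3, oac-50 and K09C6.1, all of 990 bases or longer. T05E8.1, which the current annotation lists as a pseudogene, had 21.1, 39.7 and 49.4 CPM in mes-3 sperm, against 108, 108 and 106 CPM in mes-3 male germlines. The groups are far apart and the log2 fold change was -1.33 ± 0.28 (SE, edgeR adjusted p = 0.00542). F46F5.11 had 17.9, 32 and 43 CPM in mes-3 sperm, against 98.3, 84.5 and 90.7 CPM in mes-3 male germlines, a log2 fold change of -1.33 ± 0.30 (SE, edgeR adjusted p = 0.00728). ZK105.3 had 31.1, 49.3 and 48.2 CPM in mes-3 sperm, against 111, 124 and 113 CPM in mes-3 male germlines, a log2 fold change of -1.22 ± 0.22 (SE, edgeR adjusted p = 0.00222). These 3 genes and ncr-2 kept their call in all 14 alternatives that gave a value.

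ncr-2 (F09G8.4), a homolog of the Niemann-Pick C1 protein that handles sterols in endosomes, had 83.3, 99.3 and 144 CPM in mes-3 sperm, against 242, 217 and 220 CPM in mes-3 male germlines. Its log2 fold change was -0.83 ± 0.20 (SE, edgeR adjusted p = 0.0107). snpc-1.3 (F08F3.9), which drives the transcription of piRNAs in the male germline, had 42.2, 51.2 and 40.6 CPM in mes-3 sperm, against 102, 80.9 and 98.6 CPM in mes-3 male germlines. Its log2 fold change was -0.87 ± 0.21 (SE, edgeR adjusted p = 0.0108), and the call held in 12 of 14 alternatives. For both genes the groups do not overlap. Of the 11, ncr-2, snpc-1.3, F27E5.3 and oac-50 lie over a gene on the other strand, and T05E8.1 and best-26 over one on the same strand, so their counts are uncertain, since it is not stated whether counting used strand.

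C04E6.4 had 13.7, 24.3 and 41.0 CPM in mes-3 sperm, against 64.1, 77.5 and 102 CPM in mes-3 male germlines, with a log2 fold change of -1.39 ± 0.37 (SE, edgeR adjusted p = 0.016). F36D1.8 had the largest fall among those called, with 2.64, 14.1 and 10.5 CPM in mes-3 sperm, against 37.6, 48.4 and 34.9 CPM in mes-3 male germlines, and a log2 fold change of -1.95 ± 0.50 (SE, edgeR adjusted p = 0.0133). Mes-3 sperm library 1 was the lowest of the 3 for both genes. The other 4, the bestrophin channel gene best-26, the O-acyltransferase homolog oac-50, F27E5.3 and K09C6.1, fell by 0.71 to 0.93 on the log2 scale, and each kept its call in 4 to 6 of 14 alternatives. F42G2.7 and D1081.10 had log2 fold changes of -1.55 and -1.36 but adjusted p of 0.125 and 0.303. T13A10.1 had 0, 2 and 0 counts in mes-3 sperm, against 51, 26 and 29 counts in mes-3 male germlines (edgeR adjusted p = 0.0881).

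**Figure D2:**
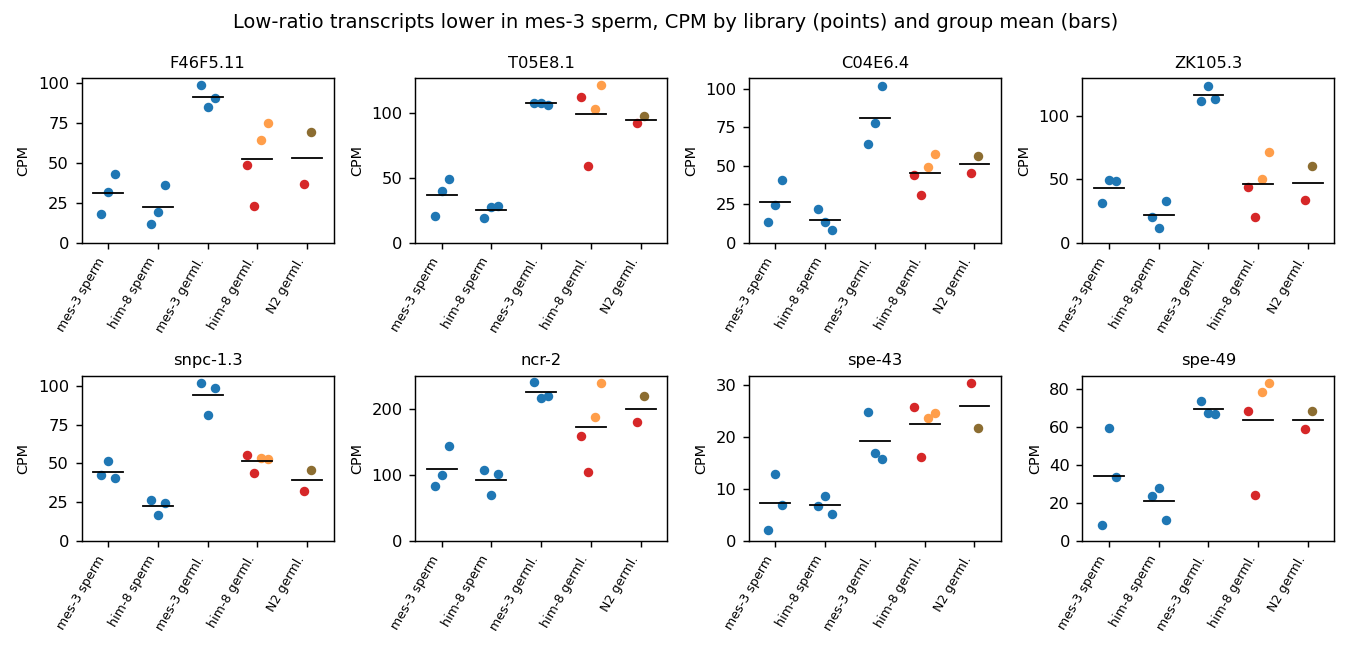
CPM in each library (points, colored by library tag: blue F, red D, orange E, brown A) and group means (bars) for 8 low-ratio transcripts that were lower in mes-3 sperm on average; each panel has its own y axis from 0, and germl. means male germline. For F46F5.11, T05E8.1, C04E6.4, ZK105.3, snpc-1.3 and ncr-2, all called lower, the 3 mes-3 sperm libraries lie below the 3 mes-3 male germline libraries, as they do for spe-43 and spe-49, which were not called.

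The 7 transcripts called higher in mes-3 sperm, against the direction that chose them in him-8, were nspd-2, nspd-3, nspd-7, nspd-9, Y59H11AM.1, C34D4.3 and C27D6.3, all of 309 to 450 bases. The nspd genes encode a nematode-specific peptide family of near-identical members, so reads may be split among them. nspd-2 (K07F5.5) had 137, 91.0 and 114 CPM in mes-3 sperm, against 59.1, 36.7 and 40.8 CPM in mes-3 male germlines, a log2 fold change of 1.53 ± 0.24 (SE, edgeR adjusted p = 0.00101). nspd-9 (F26A1.10) had 87.5, 67.3 and 48.6 CPM in mes-3 sperm, against 35.8, 32.7 and 22.9 CPM in mes-3 male germlines, a log2 fold change of 1.36 ± 0.28 (SE, edgeR adjusted p = 0.00471). For nspd-3 (C24D10.7) the groups overlapped, with 27.9, 44.8 and 15.3 CPM in mes-3 sperm, against 17.2, 8.67 and 6.81 CPM in mes-3 male germlines, and its call held in 7 of 14 alternatives. Calls held in 6 of 14 for nspd-7 and 5 of 14 for Y59H11AM.1, and in 9 to 13 of 14 for the other 4. The higher count was 2 without mes-3 male germline 3, 3 without mes-3 male germline 2, 4 without mes-3 sperm 2, 3 with a correction for transcript length and 1 when all 13 mes-3 and him-8 libraries were fitted together.

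C34D4.3 had 55.4, 39.1 and 42.2 CPM in mes-3 sperm, against 28.3, 23.5 and 16.1 CPM in mes-3 male germlines, a log2 fold change of 1.22 ± 0.31 (SE, edgeR adjusted p = 0.0133). In him-8 the same transcript had 79.4, 117 and 65.8 CPM in sperm, against 195, 281, 232 and 145 CPM in male germlines. Sperm was thus above the germline in mes-3 and below it in him-8, with no overlap in either, and 10 of the 150 had this opposite order. The rule favored the him-8 part of it: him-8 sperm lay wholly below him-8 germlines for 78.7% of the 150, against 8.08% of the rest of the pool. How often the opposite order occurs outside the 150 was not computed, so the count is a description. The difference between the genotypes was not tested, and in it tag and genotype cannot be told apart.

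In mes-3 sperm and germlines 12 low-ratio transcripts did not pass the count filter: msp-32, ZK1248.4, F59A6.2, F10D11.3, ZK1248.17, K07E12.2, Y69A2AR.27, Y59E9AL.5, Y54G2A.49, nspf-1, F14H8.8 and snb-5. Of the 10 lowest ratios, 8 belong to these. They were low in mes-3 male germlines already: msp-32 had 0, 0.133 and 0.200 CPM there, that is 0, 1 and 2 counts, and 0 CPM in all 3 mes-3 sperm libraries. A count of 0 allows up to 3 counts, which is 1.21 to 1.92 CPM in mes-3 sperm, so for msp-32 a further drop in sperm was not detectable at this depth. K07E12.2 had 0 counts in all mes-3 sperm libraries, against 7, 12 and 33 counts in mes-3 male germlines, and was at least 1.23-fold lower at the floor of 3 counts per library. Y54G2A.49 had 2, 0 and 1 counts in mes-3 sperm, against 14, 16 and 23 counts in mes-3 male germlines, and F14H8.8 had 0, 0 and 3 counts, against 41, 13 and 24 counts.

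The comparison that holds the tag and keeps him-8 sperm is with mes-3 male germlines, although it mixes genotypes. There the ratios of the 150 had a median of 0.638, with 56 under 0.5 and 47 at 1 or over, and the rest of the pool had a median of 1.52 with 52 of 1188 under 0.5. All 3 him-8 sperm libraries lay below all 3 mes-3 male germlines for 57 of the 150, or 38%, against 14% of the rest of the pool and 45.4% of all genes tested. They lay above them for 19, or 12.7%, against 52.8% of the rest of the pool and 19.7% of all genes tested. Choosing the 150 lowest of the 1338 in the pool by this ratio shared 65 of the 150, and these values use the same him-8 sperm libraries as the rule.

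fog-3 (C03C11.2), a Tob/BTG protein that sets germ cells on the sperm fate and so acts early in the lineage, had 48, 58.3 and 48.6 CPM in mes-3 sperm and 0.509, 11.2 and 29.5 CPM in him-8 sperm. It had 99.0, 68.7 and 100 CPM in mes-3 male germlines and 110, 90.3, 92.8 and 98.2 CPM in him-8 male germlines. Both kinds of sperm lay below both kinds of germline, whatever the tag, although the mes-3 test gave a log2 fold change of -0.59 ± 0.23 (SE, edgeR adjusted p = 0.0751). The him-8 sperm libraries also differed widely among themselves for this gene.

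As a description, the summed level of the 150 differed more between libraries of different tags than between sperm and germline of tag F. Under tag F, mes-3 sperm held 3346 to 4360 CPM, mes-3 male germlines 4878 to 5832 CPM and him-8 sperm 3503 to 3865 CPM. In him-8 male germlines it was 17913 and 17591 CPM under tag D and 9594 and 9578 CPM under tag E, and in N2 male germlines 24499 CPM under tag D and 8737 CPM under tag A. The 150 thus made up 1.23% to 1.67% of the counts of the pool in mes-3 sperm and 2.32% to 2.44% in mes-3 male germlines, against 0.915% to 1.07% in him-8 sperm and 3.50% to 7.19% in him-8 male germlines. For 50 of the 150 (33.3%), all 9 tag F libraries, sperm and germline alike, lay below all 6 him-8 and N2 male germline libraries, compared with 3.03% of the rest of the pool and 4.27% of the genes tested between mes-3 and him-8 male germlines. The him-8 libraries that chose the transcripts, for low sperm and high germline levels, are among those 15. A gap between tag F and the him-8 germlines thus follows in part from the rule, and the sums and shares are a description. Between mes-3 and him-8 germlines, tag and genotype cannot be told apart.

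**Figure D3:**
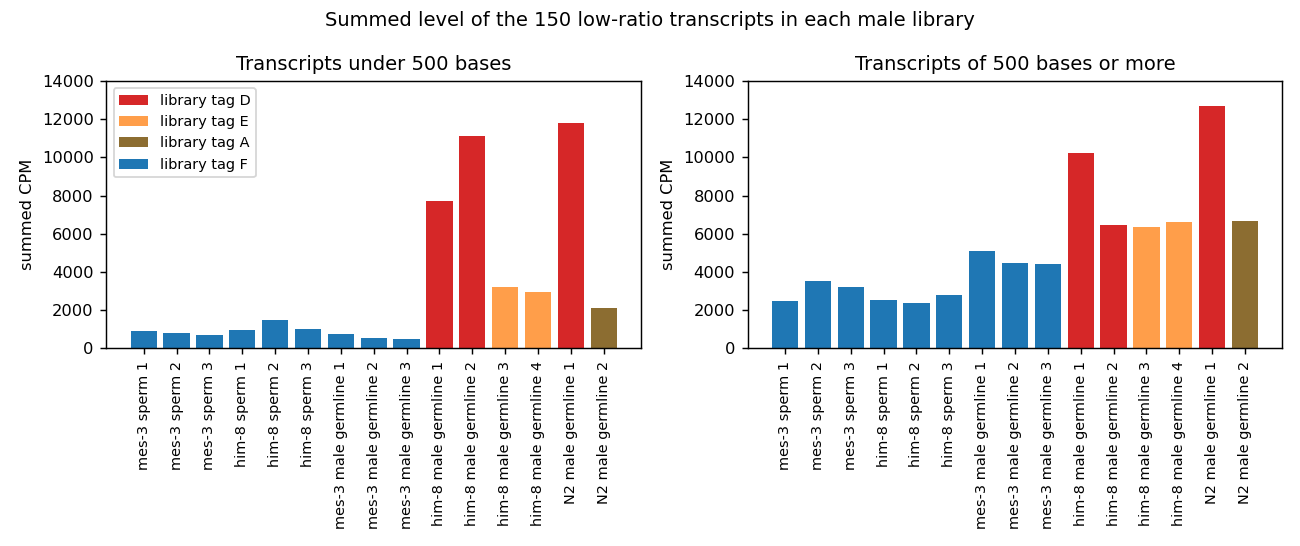
Summed CPM of the 55 low-ratio transcripts under 500 bases (left) and the 95 of 500 bases or more (right) in each of 15 male libraries, with bars colored by library tag. Under 500 bases, the 9 tag F bars lie between 475 and 1479 CPM whatever the sample type, and the tag D bars between 7705 and 11796 CPM; at 500 bases or more, the mes-3 male germline bars, 4403 to 5101 CPM, lie above all 6 sperm bars.

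Transcript length, recovered from counts and RPKM for all 150, went with 2 patterns among them. Their median length was 632 bases, compared with 1016 bases in the rest of the pool, and 55 of 150 (36.7%) were under 500 bases, compared with 190 of 1188 (16.0%). The 55 under 500 bases had a median ratio of 1.00 for mes-3 sperm over mes-3 male germlines and of 0.219 for mes-3 over him-8 male germlines. For the 18 of 1500 bases or more the same medians were 0.530 and 1.00. By these medians, short low-ratio transcripts had no common shift between mes-3 sperm and germline and were low in mes-3 against him-8 germlines. Long ones were low in mes-3 sperm and level between the germlines. Single short transcripts went both ways: mes-3 sperm lay wholly above the mes-3 germlines for 9 of the 55 and wholly below for 6. A ratio of 1.00 can also come from 0 counts in all mes-3 libraries, as for ZK1248.4 and ZK1248.17. Across the 150, Spearman's rho with length was -0.37 for the mes-3 sperm to germline ratio and 0.60 for the mes-3 to him-8 germline ratio, a description over transcripts that share libraries. The him-8 germline levels in the second ratio helped to choose the transcripts, so its medians and rho rest in part on values the rule used.

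Length also went with the mes-3 sperm to germline ratio outside the 150, with a median of 1.58 in the rest of the pool under 500 bases and of 0.912 at 1500 bases or more. The mes-3 to him-8 germline ratio went with length there too, with medians of 0.685 and 1.02 for the same lengths. Among him-8 male germlines, the mean CPM under tag D over that under tag E had a median of 2.03 for the 55 short low-ratio transcripts and 1.04 for the other 95, beside 1.19 in the rest of the pool under 500 bases and 0.885 in the rest at 500 bases or more. In N2 male germlines the tag D to tag A ratio had medians of 2.07 and 1.20 in the low-ratio transcripts, beside 1.45 and 1.05 in the rest of the pool. Short transcripts were thus higher under tag D in both sets, and him-8 male germlines 1, 3 and 4 also chose the 150. How the libraries were made or sized under each tag was not tested.

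**Figure D4:**
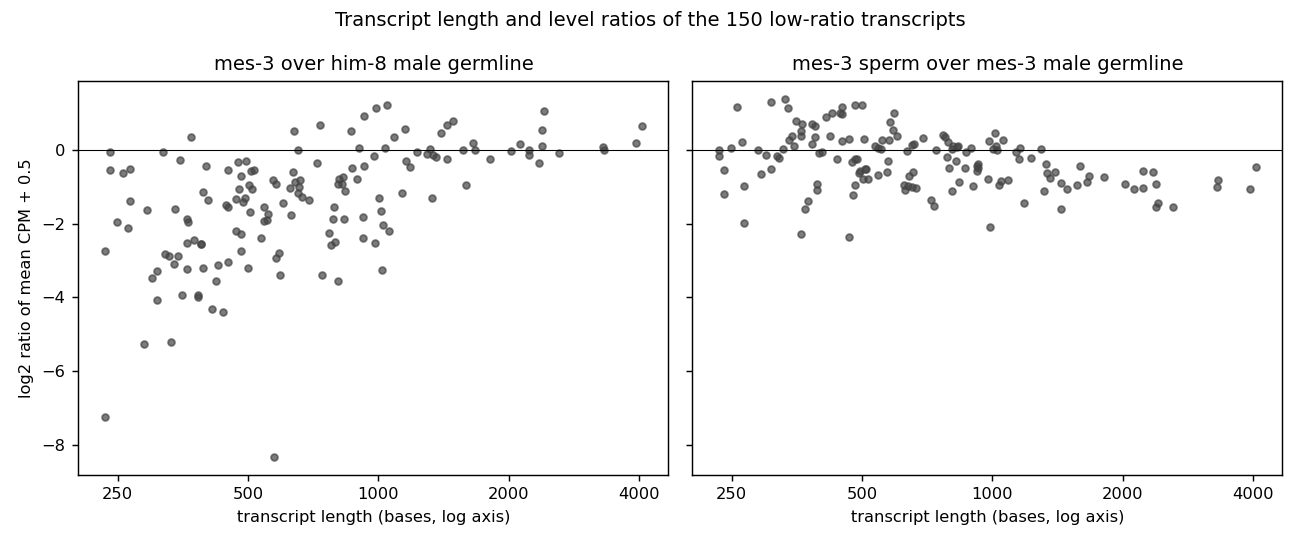
Log2 ratio of mean CPM plus 0.5 against transcript length (log axis) for the 150 low-ratio transcripts, for mes-3 over him-8 male germlines (left) and mes-3 sperm over mes-3 male germlines (right), on the same y axis. On the left, short transcripts lie far below 0 and those of 1500 bases or more near 0 (medians of the ratios 0.219 under 500 bases and 1.00 at 1500 bases or more); on the right the order is turned, with medians of 1.00 and 0.530. The him-8 germlines on the left helped to choose the transcripts.

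Between mes-3 and him-8 male germlines, 85 of 149 low-ratio transcripts tested were lower and 5 were higher (edgeR, adjusted p under 0.05), against a background of 15.8% lower and 12.2% higher over 8930 genes. Because 3 of the 4 him-8 libraries chose the transcripts for a high level there, these counts do not bear on direction. Their median log2 fold change was -1.46, against -0.45 in the rest of the pool, of which 40.4% were lower, and 0.01 over all genes tested. The number called was 46 without mes-3 male germline 3 and 55 without mes-3 male germline 2, and 98 without him-8 male germline 2, whose muscle markers were high. This comparison shares the mes-3 male germlines with that of mes-3 sperm and germline above.

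The lower transcripts included F26F4.2, with 25.3, 32.1 and 25.4 CPM in mes-3 male germlines, against 170, 175, 255 and 216 CPM in him-8 male germlines. Both him-8 tags are far above the mes-3 libraries for this gene. ZK1248.4 and ZK1248.17 had 0 counts in all mes-3 male germlines and were at least 267-fold and 50.6-fold lower than in him-8, at the floor of 3 counts per library. For nspd-3 the him-8 libraries themselves ranged widely, with 17.2, 8.67 and 6.81 CPM in mes-3 male germlines, against 1032 and 1385 CPM under tag D and 102 and 127 CPM under tag E. The 5 higher transcripts were F28A10.1, F36D1.8, ZK105.3, snpc-1.3 and C04E6.4, with log2 fold changes of 0.64 to 1.18. snpc-1.3 had 102, 80.9 and 98.6 CPM in mes-3 male germlines, against 55.2, 43.8, 53.7 and 52.6 CPM in him-8 male germlines, with no overlap and a log2 fold change of 0.67 ± 0.14 (SE, edgeR adjusted p = 0.0109). Of these 5, 4 were also among the 11 lower in mes-3 sperm, and for those the high mes-3 germline level enters both comparisons.

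Between mes-3 and him-8 sperm, 8 of 114 low-ratio transcripts tested were lower and 0 higher, against a background of 7.05% lower and 3.22% higher over 8424 genes, so the share called lower, 7.02%, was near that of all genes. The him-8 sperm libraries chose the transcripts for a low level there. At an unadjusted p under 0.05 there were 21, and DESeq2 called 8 lower and 1 higher. In the rest of the pool 400 of 1183 were lower, and the median log2 fold change was -0.71 there and -0.01 in the low-ratio transcripts. The 8 were nspd-2, nspd-4, spe-11, E03H12.5, F26F4.2, C34D4.3, T23B3.5 and Y59H11AM.1. The number called was 0 without mes-3 sperm 2 or without him-8 sperm 2, 1 without mes-3 sperm 3, 3 without mes-3 sperm 1 and 1, a higher one, with total counts.

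spe-11 (F48C1.7) encodes a protein that the sperm brings into the egg and that the embryo needs for its first steps. It had 65.9, 51.9 and 45.4 CPM in mes-3 sperm, against 103, 108 and 85.6 CPM in him-8 sperm, a log2 fold change of -1.15 ± 0.28 (SE, edgeR adjusted p = 0.0195), and the call held in 8 of 13 alternatives. In mes-3 male germlines it had 57.0, 46.3 and 34.8 CPM, against 398, 379, 205 and 190 CPM in him-8 male germlines. Its mes-3 sperm over mes-3 male germline log2 fold change was 0.45 ± 0.26 (SE, edgeR adjusted p = 0.234), while its him-8 ratio was 0.376. The mes-3 and him-8 germlines differ in both genotype and tag, which cannot be told apart.

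Of 17 genes of the spe list in the pool, 3 were among the 150, and spe-43 and spe-49 differed from spe-11 in their values. spe-43 (F09E8.1), needed for spermatids to turn into crawling sperm, had 2.11, 12.8 and 6.83 CPM in mes-3 sperm, against 24.9, 16.9 and 15.8 CPM in mes-3 male germlines. spe-49 (K12B6.2), needed for sperm to fertilize the egg, had 8.44, 59.6 and 33.8 CPM in mes-3 sperm, against 73.9, 67.6 and 66.8 CPM in mes-3 male germlines. For both, all mes-3 sperm libraries lay below the germlines, but they were spread widely, and the adjusted p was 0.168 for spe-43 and 0.218 for spe-49 (edgeR). Their mes-3 germline levels overlapped those of him-8, where spe-43 had 25.7, 16.2, 23.7 and 24.6 CPM and spe-49 had 68.3, 24.3, 78.3 and 83.2 CPM. Over the 26 spe genes tested, 4 were higher and 0 lower in mes-3 sperm than in mes-3 male germlines, with a median log2 fold change of -0.07, beside -0.06 over all genes tested.

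The major sperm protein genes were mostly outside the low-ratio set. Of 30 major sperm protein genes in the pool msp-32 and msp-74 were in it, a count that was not tested. In mes-3 sperm 29 of 30 tested were called higher than in mes-3 male germlines, with a median log2 fold change of 0.98. Of the rest of the pool 28.4% were called higher there, and of all genes tested 19%. msp-74 (F09C12.7), the shortest of the 30 at 234 bases, had 17.9, 17.3 and 15.7 CPM in mes-3 sperm, against 20.2, 17.6 and 18.7 CPM in mes-3 male germlines, and did not pass the test (log2 fold change 0.05 ± 0.38 SE, edgeR adjusted p = 0.927). In him-8 it had 19.8, 34.0 and 27.9 CPM in sperm, against 118, 280, 149 and 122 CPM in male germlines. These genes are near-identical copies, so their counts are uncertain. The pool also holds 4 sperm chromatin genes, the 2 PP1 phosphatase genes gsp-3 and gsp-4 and 7 of 9 tau tubulin kinase-like genes. None was in the low-ratio set, but with 150 of 1338 chosen, lists this short can hold none. In mes-3 sperm all 4 sperm chromatin genes, both PP1 genes and 6 of 7 tested tau tubulin kinase-like genes were called higher.

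The nspd family was the most frequent among the 150, with 6 of the 9 in the pool: nspd-2, nspd-3, nspd-4, nspd-6, nspd-7 and nspd-9. In mes-3 their sperm to germline ratios were 1.31 to 2.62, and in him-8 0.0999 to 0.423. The other 3 of the pool, nspd-1, nspd-5 and nspd-10, had mes-3 ratios of 1.62 to 1.84 and him-8 ratios of 0.482, 0.643 and 1.52. All 9 were thus higher in mes-3 sperm than in the mes-3 germline on average. Between germlines they differed with the tag: nspd-2 had 1436 and 2161 CPM in him-8 under tag D and 441 and 436 CPM under tag E, and 2364 CPM in N2 under tag D and 206 CPM under tag A. nspd-4 (T23B7.1) had 98.1, 60.9 and 64.7 CPM in mes-3 sperm and 97.2, 214 and 130 CPM in him-8 sperm, a log2 fold change of -1.28 ± 0.32 (SE, edgeR adjusted p = 0.0236), and the call held in 8 of 13 alternatives. nspd-6 (C24D10.8) had 39, 42.3 and 26.5 CPM in mes-3 sperm, against 34.9, 30.1 and 17 CPM in mes-3 male germlines, which overlap. Over the 26 tested genes of the ssp, ssq, nspd and smz families, 21 were higher and 0 lower in mes-3 sperm, with a median log2 fold change of 0.99.

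**Figure D5:**
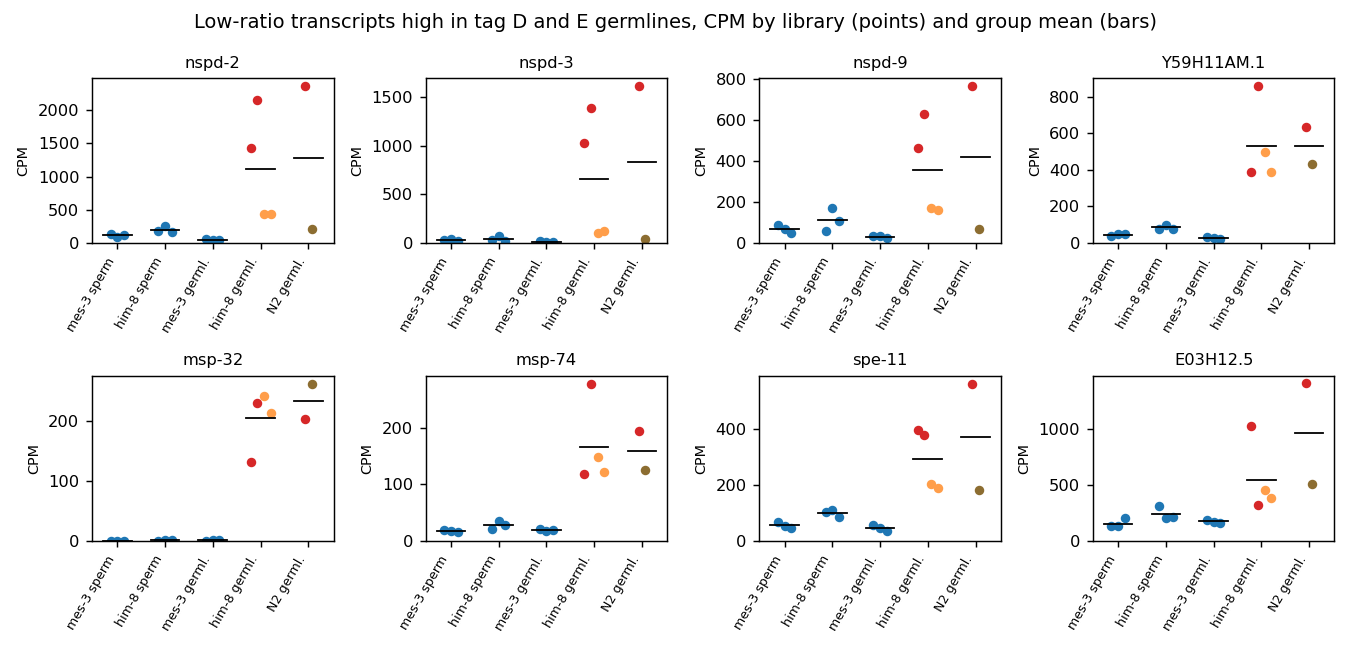
CPM in each library (points, colored by library tag: blue F, red D, orange E, brown A) and group means (bars) for 8 low-ratio transcripts, with germl. for male germline and a y axis from 0 in each panel. Except for 1 him-8 sperm library in nspd-9 (168 CPM, against 161 CPM in the lowest him-8 male germline), all 9 tag F libraries lie below all him-8 male germline libraries, sperm and mes-3 germline alike; nspd-2, nspd-3 and nspd-9 are also far higher in tag D (1436 to 2364 CPM for nspd-2) than in tags E and A (206 to 441 CPM).

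The bestrophin genes, which encode anion channels, had 5 of 6 pool transcripts among the 150: best-6, best-10, best-11, best-25 and best-26. They are 1232 to 3314 bases long. best-26 (ZK849.5) had 32.2, 53.2 and 23.7 CPM in mes-3 sperm, against 70.1, 96.9 and 70.0 CPM in mes-3 male germlines, and fell by 0.93 ± 0.30 on the log2 scale (SE, edgeR adjusted p = 0.038). best-25 (ZK849.4) had 39.5, 55.7 and 55.0 CPM in mes-3 sperm, against 83.9, 78.4 and 88.1 CPM in mes-3 male germlines, with an adjusted p of 0.0955. best-6 and best-11 had log2 fold changes of -0.60 and -0.56, with adjusted p of 0.225 and 0.157, and best-10 had -0.02. Between mes-3 and him-8 male germlines none of the 5 was called, with log2 fold changes of -0.37 to 0.01, whereas all 6 nspd genes of the set were called lower. Of the low-ratio transcripts tested there 57.1% were called lower, and of the rest of the pool 40.4%. The him-8 germlines helped to choose the transcripts, so these calls are a description and do not bear on direction.

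The 2 genes of the pool named for cylicin, a mammalian sperm head protein, were both among the 150, and both were highest in him-8 male germline 1 and N2 male germline 1. cylc-1 (Y59E9AL.6) had 117, 131 and 191 CPM in mes-3 sperm, against 145, 87.9 and 98.6 CPM in mes-3 male germlines. It had 140, 154 and 120 CPM in him-8 sperm, against 948 and 261 CPM (tag D) and 320 and 304 CPM (tag E) in him-8 male germlines. Among him-8 libraries germline 1 was far above the rest, and the N2 male germlines had 1564 CPM (tag D) and 317 CPM (tag A). cylc-2 (C41G7.6) had 12.7, 14.1 and 30.1 CPM in mes-3 sperm, against 37.3, 26.3 and 16.2 CPM in mes-3 male germlines, and these groups overlap.

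Other named genes were of several kinds. Among the 10 highest in mes-3 male germlines were the neprilysin-like protease gene nep-6 and the alpha-mannosidase gene aman-3. nep-6 (F18A12.1) had 101 to 110 CPM in mes-3 sperm, against 145 to 173 CPM in mes-3 male germlines, with no overlap but an adjusted p of 0.106. aman-3 (F48C1.1) had 32.7, 58.9 and 80.0 CPM in mes-3 sperm, against 133, 103 and 108 CPM in mes-3 male germlines, with an adjusted p of 0.068. Both had him-8 germline levels that overlapped those of mes-3. Y54F10BM.3, the highest of all in mes-3 male germlines, had 143, 272 and 218 CPM in mes-3 sperm, against 347, 296 and 306 CPM in mes-3 male germlines (adjusted p 0.192, edgeR). E03H12.5, of 786 bases, had 130, 128 and 199 CPM in mes-3 sperm, against 187, 166 and 162 CPM in mes-3 male germlines, and these groups overlap. oac-23 had a log2 fold change of -0.88 with an adjusted p of 0.058, and Y39B6A.18 -0.27 with 0.423.

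The C-type lectin gene clec-117, at 581 bases, had 16.9, 29.5 and 36.2 CPM in mes-3 sperm, against 19.8, 14.1 and 13.6 CPM in mes-3 male germlines, a log2 fold change of 1.01 ± 0.40 (SE, edgeR adjusted p = 0.0832). The groups overlap, as they do for clec-260. Of the irld genes, which encode proteins with receptor L domains, irld-6 and irld-57 had log2 fold changes of -0.67 and -0.45 that did not pass the test. snb-5 (C30A5.5), a synaptobrevin-related gene, had at most 0.376 CPM in mes-3 male germlines, against 6.43, 5.41, 6.16 and 6.84 CPM in him-8 male germlines, alike under both tags.

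In oogenic germlines that did not enter the rule (N2 library 3 and fem-2 libraries 1 and 2), 130 to 143 of the 150 had 3 counts or fewer, and the highest single values were 1.13 to 1.98 CPM. The summed level was 14.3 to 14.8 CPM, or 0.105% to 0.108% of the mean in him-8 male germlines. Offspring germlines held 134 and 145 CPM (M+P-), against 150 and 184 CPM (M+P+), with 75 and 79 of the 150 at 3 counts or fewer, against 56 and 59. These 4 libraries are all of tag G, and their sums lay above those of all oogenic libraries. The rest of the pool was higher there too, so that the share of the 150 in the counts of the pool was 5.68% to 6.48% for M+P- offspring, against 5.66% to 6.55% for M+P+ offspring.

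Between M+P- and M+P+ offspring germlines, 29 low-ratio transcripts passed the count filter and 0 were called, against a background of 0% over 11962 genes (edgeR). At an unadjusted p under 0.05 there were 5 of the 29 and 1244 of all genes, and DESeq2 called 0 of the 29, with 101 of all genes higher and 17 lower. The median log2 fold change of the 29 was -0.12, with 15 below 0. The highest single value in a library was small, with 7.14 CPM (aman-3) and 5.94 CPM (ncr-2) in the M+P- libraries and 7.56 CPM (ncr-2) and 7.67 CPM (T21C12.8) in the M+P+ libraries.

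By annotation, 145 of the 150 matched 1 gene, of which 135 are protein-coding and 10 pseudogenes, and 33 have a gene symbol. None is on the X chromosome, with 5 of 1179 in the rest of the pool, whereas 4444 of 29649 matched identifiers with any count are X-linked. On autosomes they fell as 31 on I, 41 on II, 18 on III, 30 on IV and 25 on V, or 21.4%, 28.3%, 12.4%, 20.7% and 17.2%, compared with 21%, 19.8%, 13.2%, 29.2% and 16.5% in the rest of the pool. Of the 145, 50 overlap another gene, 11 on the same strand and 41 on the other, so their counts may hold reads of a neighbor. How often this occurs in the rest of the pool was not computed.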

How the data were processed

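RNA was depleted of ribosomal RNA, and single-end reads were aligned by the authors with TopHat2 to the WormBase WS220 transcriptome and counted per gene with HTSeq. The deposited counts are raw, for 45461 identifiers in each of 25 libraries, and 5 summary lines per library were left out: reads outside genes made up 3.55% to 18.8% and ambiguous reads 1.59% to 3.11%. The authors also deposited RPKM, scaled by each gene's longest exonic transcript and given as the authors' mean per male group and 1 mean over N2 and fem-2 oogenic libraries, and tables of DESeq2 log2 fold changes and adjusted p-values, which were not used. Strand settings and versions are not given in the sources used here.

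Low-ratio transcripts were chosen as the opening of the report says, with 3 identifiers left out by the rule. The set, the gene lists and the tests were chosen with earlier results of these data known. Counts were tested with edgeR 4.0.16 in R 4.3.3 (quasi-likelihood F test, TMM factors, filterByExpr, Benjamini-Hochberg over all genes tested, calls at an adjusted p under 0.05), fitted on the groups compared without covariates. The procedure was tried on simulated counts for mes-3 sperm and germlines. It recovered 17 of 43 genes at a log2 change of -2 and 10 of 45 at -1. At 2 it recovered 33 of 49 and at 1 it recovered 20 of 47, and it called 4 of 9414 unchanged genes. Many true changes, more of the lower ones, were thus missed. Alternatives were DESeq2 1.42.0, RLE factors, total counts, other filters, each library left out, the replicate number as a block, all 13 mes-3 and him-8 libraries in 1 fit, other controls, other forms of the rule, and, for mes-3 sperm and germlines, a correction for transcript length (lowess span 0.3). The length correction of the other comparisons and the rule with him-8 sperm over mes-3 male germlines or with germlines of 1 tag were chosen after seeing the data.

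Names and chromosomes come from Ensembl release 115 (WBcel235), in which 44933 identifiers matched 1 gene, 525 none and 3 several. As the counts use an older annotation, no coordinates are given. Replicates are the separate samples of a group by their labels, and among 24 replicate pairs the chi-square per degree of freedom was 2.69 to 45.15, so no pair agreed within sampling noise. The study describes its replicates as biological. A floor of 3 counts covers counting error only, since the reads have no molecular identifiers. Transcripts were named by rank of the ratio (10 lowest, 3 on each side of the threshold), level in mes-3 male germlines (10 highest), fold change and calls in mes-3 sperm against germline, calls in the other comparisons (up to 5 per direction) and membership of a list or gene family. F46F5.11, T05E8.1, T23B3.5, T21C12.8, fog-3, snb-5 and, of those that did not pass the filter, Y54G2A.49, nspf-1 and F14H8.8 fall outside this rule and were chosen after their values were seen. Promoter and protein sequences were not analysed here.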

Additional observations from a re-analysis of the deposited data

Results flagged for a closer look

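For 10 low-ratio transcripts, all mes-3 sperm libraries lay above all mes-3 male germlines while all him-8 sperm libraries lay below all him-8 male germlines: K01D12.7, K10H10.7, nspd-7, Y59H11AM.1, nspd-2, Y87G2A.20, C27D6.3, F58F12.2, C36F7.5 and C34D4.3. Of these, 7 are under 500 bases. The difference between the genotypes was not tested, and it cannot be told apart from the library tag.

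Among the 4 him-8 male germlines, 3 of 58 values examined had a library far from the other 3, by Dixon's criterion, and chance gives about 1 in 20. cylc-1 had 948 CPM and cylc-2 298 CPM in him-8 male germline 1, against 261 to 320 CPM and 67.6 to 89.5 CPM in the other 3 libraries. F27E5.3 had 170 CPM in him-8 male germline 3, against 221 to 225 CPM in the others. The first library is part of the ratio that chose the transcripts, and without it 123 of the 150 were chosen again.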

How the results depend on the processing

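The number of low-ratio transcripts called lower in mes-3 sperm than in mes-3 male germlines, 11, was 7 with RLE factors, with a filter of 10 counts in all libraries of 1 group, with 13 libraries in 1 fit, with a length correction and with transcripts chosen on all 4 him-8 germlines. It was 18 with total counts, 22 with no count filter, 5 when a log2 change of 1 or more was required, 4 of the 100 lowest ratios and 5 to 20 when a library was left out. The number called higher, 7, was 4 with total counts, 1 with 13 libraries in 1 fit, 3 with a length correction and 2 to 9 when a library was left out. Total counts moved the median log2 fold change of all genes to -0.26, compared with -0.06, and the higher share of all calls to 46.8%, compared with 64.6%. Between mes-3 and him-8 male germlines, 90 called became 46 to 98 when a library was left out, and in sperm 8 called became 1 with total counts, 4 with a length correction and 0 to 9 when a library was left out. There total counts moved the median of all genes to 0.21 (compared with 0.01) in germlines and 0.33 (compared with 0.06) in sperm, with 63.4% and 63.2% of calls higher, compared with 43.6% and 31.3%. In offspring 0 were called in all 11 alternatives. Of the 150, 53 were shared when chosen on mes-3 libraries, 65 with him-8 sperm over mes-3 male germlines, and 117 to 148 under the other forms of the rule (123 to 144 when a library was left out). None of the 18 called in mes-3 sperm against germlines or the 8 called between sperm changed sign in the alternatives that gave a value. Deviations of same-numbered libraries correlated at -0.1 to 0.0863. With so few libraries per group this cannot settle whether same-numbered samples were paired, and the labels give only a number. With the replicate block 10 were lower and 6 higher in mes-3 sperm, 81 were called between germlines, 0 between sperm and 0 in offspring. Low counts limit the sperm libraries, where 3 counts are 1.21 to 1.92 CPM in mes-3 sperm and 12 of the 150 did not pass the filter.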
